A study of Mus musculus with 30 samples.

Results

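The 10 genes Slc7a3, Slc7a1, Slc7a5, Slc3a2, Slc7a11, Asns, Psat1, Phgdh, Chac1 and Trib3, of amino acid supply and of the ATF4 response, were followed in mouse embryonic stem cells that had lost regulators of cohesin (10 of the 55421 genes in the count table). They were chosen by symbol, with the strong reduction of Slc7a3 after treatment already known. Its values are therefore described without a test, and the question asked of the data was whether the other 9 moved with it. All 10 passed the filter on low counts, as did 19868 genes in all.

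The cells were E14 embryonic stem cells of 129P2/Ola background, a male (XY) line, in 5 engineered derivatives, each a single named line. All 5 express Tir1, the plant protein that, with auxin (indole-3-acetic acid, 500 µM), sends AID-tagged proteins for destruction. The TIR1 line carries Tir1 and no tagged target. The PDS5AB line carries PDS5A-AID and PDS5B-AID, and the WAPL line WAPL-AID. The combined lines, PDS5AB-NIPBL and WAPL-NIPBL, have the same respective AID tags and also NIPBL-FKBP and RAD21-Halo, and were given auxin together with dTAG-13 (500 nM), which removes FKBP-tagged proteins. Each line was sampled untreated and after 24 h, with 3 libraries in each of the 10 groups. NIPBL activates loop extrusion by cohesin, WAPL releases cohesin from chromatin, and the PDS5 proteins bind the ring and take part in its regulation. The medium held serum, leukaemia inhibitory factor, the inhibitors PD0325901 and CHIR-99021, and added non-essential amino acids, which all groups shared.

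ATF4 is a transcription factor whose translation increases when the initiation factor eIF2 is phosphorylated, as happens when uncharged tRNA activates the kinase GCN2 or misfolded protein activates PERK. It raises genes that import and make amino acids and that charge tRNA, and it binds a composite C/EBP-ATF element often written TGATGNAA. Among the members, Slc7a3 and Slc7a1 encode the cationic amino acid transporters CAT3 and CAT1, which carry arginine and lysine. Slc7a5 (LAT1) exchanges large neutral amino acids and Slc7a11 (xCT) exchanges cystine for glutamate, both as partners of the heavy chain Slc3a2 (4F2hc, CD98). Asns makes asparagine. Phgdh and Psat1 catalyse the first steps of serine synthesis. Chac1 degrades glutathione, and Trib3 is a pseudokinase that restrains ATF4 and AKT signalling.

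The libraries held 19632704 to 45539021 counted fragments. Levels below are fragments scaled to library size with TMM factors (CPM). Every library carried naive pluripotency markers (Pou5f1, Nanog, Sox2, Esrrb and others), with a summed level of 3047 to 5851 CPM, while the fibroblast markers summed to 16.4 to 42.4 CPM and Postn was at 0 in 17 of 30 libraries. Library names run from 1 to 21 for 9 libraries (both PDS5AB groups and untreated TIR1) and from 25 to 45 for the other 21. The 2 TIR1 groups lie in different sets, so the auxin effect in that line cannot be told apart from the set. The effects in the 4 degron lines lie within a set. A fit with the replicate number as a block, warranted in the degron lines, is given where it changes the call of a member or regulator or clearly moves a count.

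Promoter sequences were read from RefSeq (GRCm38.p6), from 250 bases before to 50 after the annotated start. Entries matched 8 of the 10 members, with a pair of starts each for Slc7a1 and Psat1. Slc7a3 and Slc7a5 were not matched. TGATGNAA, searched on both strands, was present in 4 of the 8, namely Slc7a11, Asns, Chac1 and Trib3, against 4.51% of the 27025 genes with a promoter of the same length in that table. Those 4 are printed 5′ to 3′ on the gene's strand, with the matches in capitals, since they show where the letters lie in members whose messenger RNA moved differently. Positions count from the start as +1.
Asns, chr6:7693160-7693459, minus strand: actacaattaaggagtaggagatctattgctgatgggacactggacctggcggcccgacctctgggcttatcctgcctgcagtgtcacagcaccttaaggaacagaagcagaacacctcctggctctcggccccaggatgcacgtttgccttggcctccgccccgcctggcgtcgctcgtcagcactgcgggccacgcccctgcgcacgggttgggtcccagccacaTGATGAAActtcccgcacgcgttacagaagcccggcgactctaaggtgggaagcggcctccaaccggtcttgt
Chac1, chr2:119350992-119351291, plus strand: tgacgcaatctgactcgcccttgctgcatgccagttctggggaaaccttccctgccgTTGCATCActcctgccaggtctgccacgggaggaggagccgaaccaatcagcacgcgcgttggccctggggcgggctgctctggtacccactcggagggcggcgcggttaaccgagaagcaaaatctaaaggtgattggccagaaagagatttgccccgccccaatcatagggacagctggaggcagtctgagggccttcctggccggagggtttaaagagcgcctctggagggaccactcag
Trib3, chr2:152344011-152344310, minus strand: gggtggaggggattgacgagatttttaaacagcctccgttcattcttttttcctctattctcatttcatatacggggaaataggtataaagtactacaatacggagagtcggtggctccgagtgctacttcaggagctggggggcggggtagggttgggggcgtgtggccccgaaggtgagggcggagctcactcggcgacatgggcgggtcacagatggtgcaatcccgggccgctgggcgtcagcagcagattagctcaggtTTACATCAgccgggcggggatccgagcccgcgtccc
Slc7a11, chr3:50443564-50443863, minus strand: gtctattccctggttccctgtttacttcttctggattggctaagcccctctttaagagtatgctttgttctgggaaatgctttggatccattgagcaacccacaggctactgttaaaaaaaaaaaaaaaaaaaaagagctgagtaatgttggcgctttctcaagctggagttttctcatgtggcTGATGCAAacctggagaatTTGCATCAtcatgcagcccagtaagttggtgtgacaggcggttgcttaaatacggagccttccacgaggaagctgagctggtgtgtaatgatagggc
Asns has the forward letters TGATGAAA from -23 to -16. Chac1 has TTGCATCA, the reverse strand form, from -193 to -186, and Trib3 has TTACATCA from 15 to 22, after its start. Slc7a11 is the only member with a pair of matches, TGATGCAA from -66 to -59 and TTGCATCA from -47 to -40. The windows of Psat1, Phgdh, Slc3a2 and Slc7a1 hold none of these letters. The upstream Psat1 window is shown for comparison, because Psat1 is among the members with the largest falls described below.
Psat1, chr19:15925010-15925309, minus strand: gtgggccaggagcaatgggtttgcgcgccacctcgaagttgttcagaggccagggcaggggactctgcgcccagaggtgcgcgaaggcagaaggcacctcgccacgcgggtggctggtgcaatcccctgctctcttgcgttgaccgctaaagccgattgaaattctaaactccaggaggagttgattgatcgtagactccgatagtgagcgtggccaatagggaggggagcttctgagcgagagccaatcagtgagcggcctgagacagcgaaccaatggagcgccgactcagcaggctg
When only the 150 bases before the start were searched, 2 of the 8 members (Slc7a11 and Asns) held a match, against 2.54% of all genes of the table. A match is a description of the sequence and was not set against binding data.

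Slc7a3 (ENSMUSG00000031297.14, chrX:101079210-101086020, minus strand, exons summing to 3784 bases) stood between 73.9 and 109 CPM in all 15 untreated libraries and between 10.1 and 52.4 CPM in all 15 treated ones, so no treated library reached an untreated one. In the PDS5AB line the untreated libraries held 87.0, 102 and 101 CPM and the treated ones 10.1, 11.9 and 11.5, a mean of 96.5 ± 8.25 against 11.1 ± 0.918 CPM (SD, n = 3 each). The treated level was 11.6% of the untreated one in that line. In the WAPL line the libraries held 88.2, 92.0 and 84.5 CPM untreated and 13.8, 19.8 and 14.8 treated, which left 18.4%. This was the next lowest level, and the treated libraries of the PDS5AB and WAPL lines did not overlap.

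Slc7a3 remained higher in the lines that also lost NIPBL. The PDS5AB-NIPBL libraries held 92.6, 103 and 105 CPM untreated and 26.2, 38.1 and 30.5 treated, leaving 31.5%. The WAPL-NIPBL libraries held 80.8, 73.9 and 80.7 CPM untreated and 26.6, 31.7 and 26.2 treated, leaving 35.9%. Treated libraries of these lines overlapped each other. In the TIR1 line, where auxin had no tagged target, 84.1, 109 and 106 CPM stood against 38.8, 52.4 and 48.3, leaving 46.8%. On the log2 scale the effects were -3.11 ± 0.137 (SE) for PDS5AB, -2.44 ± 0.132 for WAPL, -1.66 ± 0.127 and -1.48 ± 0.126 for PDS5AB-NIPBL and WAPL-NIPBL, and -1.10 ± 0.122 for TIR1. The plot of levels by library shows all 10 members.

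**Figure D1:**
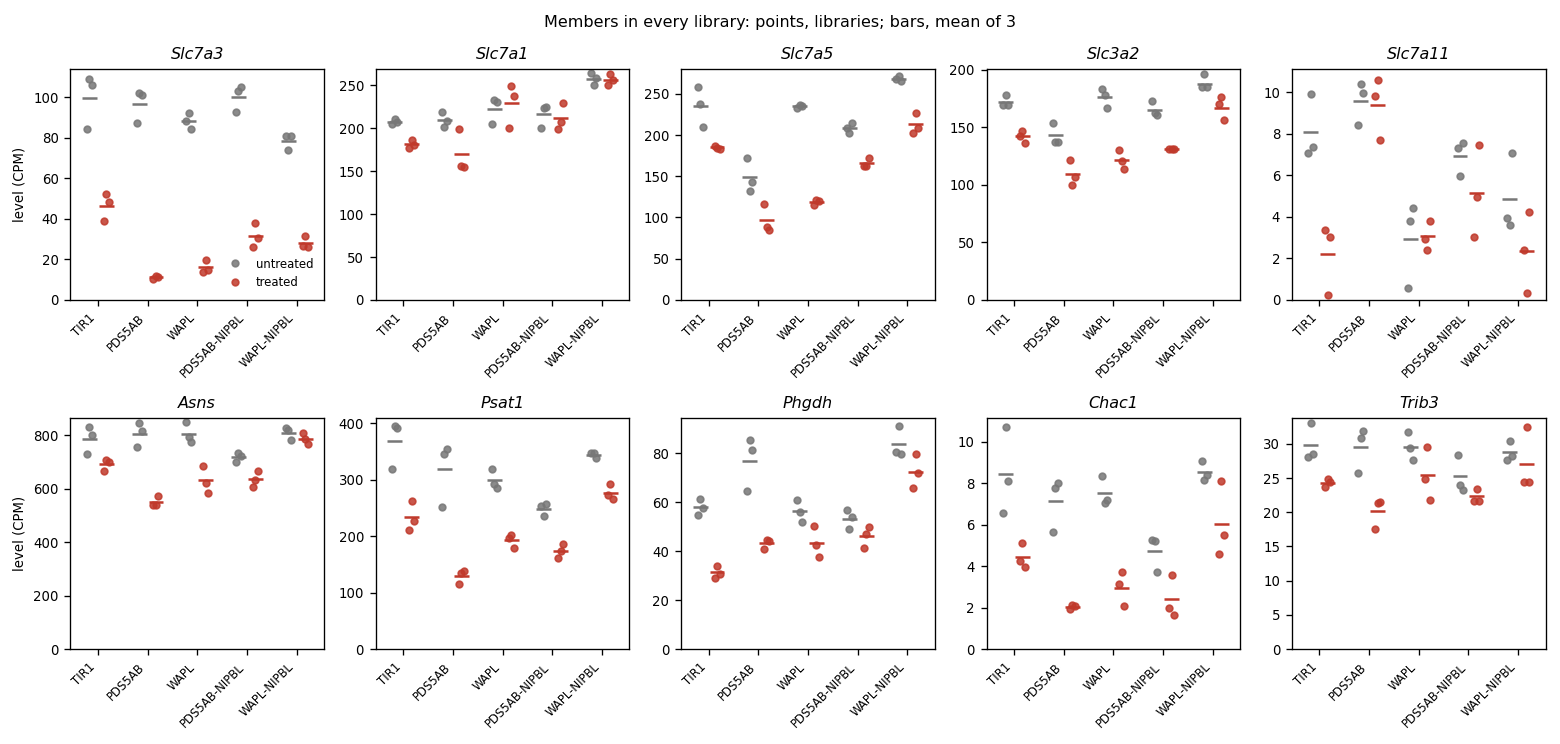
Level of each member (CPM, linear axis from 0) in the 30 libraries, by line, with untreated libraries in grey and treated ones in red. Points are libraries and bars are means of 3. Slc7a3 treated libraries sit between 10.1 and 52.4 CPM, all below the untreated ones, while Slc7a1 and Trib3 stay near their untreated levels in most lines.

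Of the other 9 members, between 2 and 8 fell in a line. At an adjusted p under 0.05 in edgeR's quasi-likelihood test, 8 of the 9 fell in PDS5AB, against 20.2% of all tested genes called lower there. In TIR1 7 of 9 fell (9.59% of all genes), in WAPL 6 of 9 (15.8%), in PDS5AB-NIPBL 5 of 9 (8.06%) and in WAPL-NIPBL 2 of 9 (3.45%). No member was called higher in any line. Of the 45 gene effects, 28 passed and 43 were below zero. The median log2 fold change of the 9 was -0.55 in PDS5AB, -0.38 in WAPL, -0.35 in TIR1, -0.33 in PDS5AB-NIPBL and -0.21 in WAPL-NIPBL, where the median of all genes lay between -0.01 and 0.04. Treated libraries lay wholly below untreated ones for 9 of the 9 members in TIR1 (18.7% of all genes), 8 in PDS5AB (23.2%), 6 in WAPL (19%), 4 in WAPL-NIPBL (12.6%) and 5 in PDS5AB-NIPBL (15.6%). With the replicate block, 6 of 9 fell in WAPL-NIPBL, where 10.1% of all genes were then called lower. With it 8 of 9 fell in PDS5AB (26% of all genes), 7 in WAPL (23%), adding Trib3, and 6 in PDS5AB-NIPBL (15.3%), adding Phgdh. No member rose with the block, where 30.7%, 22.1%, 16.8% and 10.8% of all genes were called higher in PDS5AB, WAPL, PDS5AB-NIPBL and WAPL-NIPBL. The WAPL-NIPBL count without the block depended on single libraries, ranging from 0 to 2 when each was left out.

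The naive pluripotency markers, taken as a sum, were lower after treatment in the 4 degron lines. Their summed level was 4959 to 5237 CPM untreated and 3047 to 3231 treated in PDS5AB, and 5254 to 5377 against 4026 to 4121 in WAPL. In PDS5AB-NIPBL it was 5583 to 5851 against 4587 to 4916, and in WAPL-NIPBL 5318 to 5464 against 4427 to 4546. In TIR1, where the members were lower too, the ranges overlapped, at 5182 to 5416 and 5263 to 5576 CPM. There Tfcp2l1, the most abundant of the 8, was higher (1223 to 1279.6 against 1599.8 to 1673 CPM), and the other 7 together were lower without overlap (3930.2 to 4136 against 3663 to 3903). Tfcp2l1 was also higher in PDS5AB-NIPBL (1311 to 1466 against 1479 to 1658). It overlapped in WAPL and WAPL-NIPBL and was lower in PDS5AB (1051 to 1069 against 891 to 929.6). The other 7 together were lower without overlap in all 4 degron lines. The primitive endoderm markers summed to 23.8 to 26.8 CPM untreated and 58.5 to 71.3 treated in PDS5AB, 10.1 to 13 against 37.6 to 53.4 in WAPL, 10.1 to 12.7 against 29.9 to 35.6 in PDS5AB-NIPBL, 5.71 to 6.06 against 14.2 to 15.7 in WAPL-NIPBL, and 7.62 to 8.23 against 10 to 11.1 in TIR1. The trophoblast markers were lower after treatment in the 4 degron lines, at 59.4 to 71.9 CPM untreated and 42 to 46 treated in PDS5AB, 82.2 to 101 against 27 to 28.1 in WAPL, 70.9 to 80.4 against 39.5 to 43.9 in PDS5AB-NIPBL, and 64.3 to 72.3 against 32.6 to 37.1 in WAPL-NIPBL. In TIR1 they were higher, at 83.1 to 91.3 against 131 to 138. The formative epiblast markers were lower without overlap in TIR1 (199 to 221 against 160.1 to 168), in WAPL (164 to 176 against 131 to 145) and in WAPL-NIPBL (158 to 182 against 136 to 153), and overlapped in the other lines. Dab2 led the primitive endoderm sum and overlapped in TIR1 (3.38 to 4.45 against 2.95 to 4.10). The other primitive endoderm markers were higher there (3.17 to 4.85 against 6.17 to 8.18). In the 4 degron lines Dab2 and the others were both higher without overlap. The leading gene was Tfap2c for trophoblast and Dnmt3b for formative epiblast. Without it the other trophoblast markers still did not overlap in TIR1 (9.99 to 12.3 against 15.9 to 17.7), PDS5AB (19.3 to 31.5 against 15.4 to 16.4) and WAPL (10.2 to 13.4 against 8.41 to 9.81), but overlapped in both combined lines, and the other formative markers were lower without overlap in TIR1 (8.93 to 9.11 against 3.97 to 4.47), WAPL, PDS5AB-NIPBL and WAPL-NIPBL and higher in PDS5AB (12.1 to 17.5 against 18.6 to 27). The fibroblast markers were higher in treated PDS5AB (27.4 to 30.1 against 40.7 to 42.4) and lower in treated WAPL (23.9 to 24.9 against 16.4 to 19.1). Their leading gene, Pdgfrb, was higher in treated WAPL (10.3 to 10.9 against 11.5 to 13.8), and the other fibroblast markers were lower without overlap in WAPL (13.5 to 14.1 against 4.35 to 5.21), TIR1 (14 to 17.6 against 10.2 to 13.2) and WAPL-NIPBL (10.3 to 12.4 against 7.43 to 8.13). The part of these markers in the result was not tested. A smaller share of cells expressing a gene and less RNA per cell cannot be told apart in bulk libraries.

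**Figure D2:**
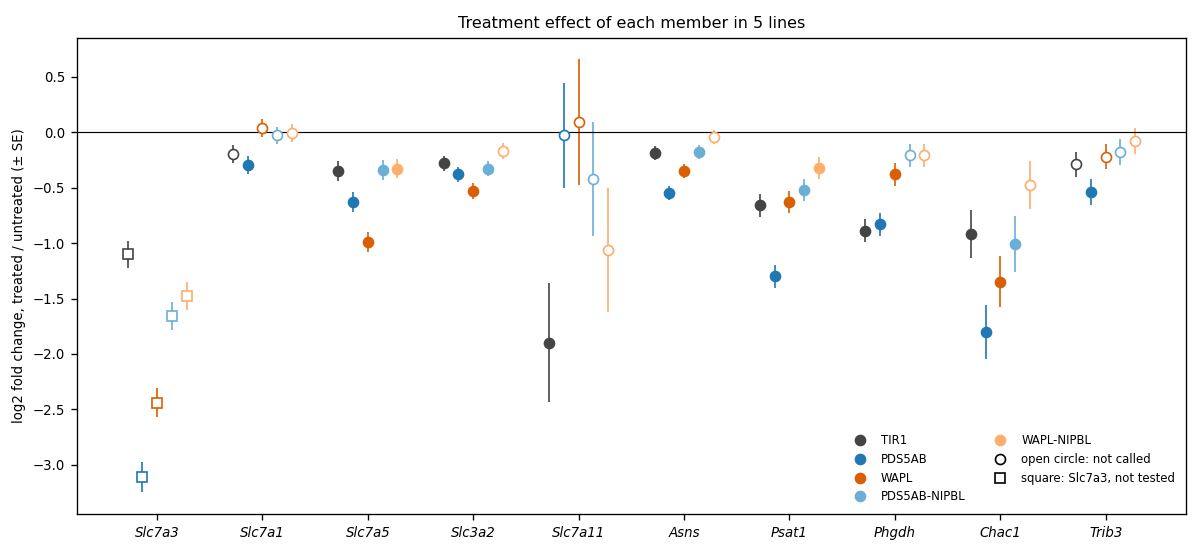
Log2 fold change (treated over untreated, ± SE) of each member in the 5 lines. Filled circles passed edgeR's test at an adjusted p under 0.05, open circles did not, and squares mark Slc7a3, which was not tested. All members but Slc7a1 and Slc7a11 lie below zero in all 5 lines, and Slc7a1 lies near zero in 3.

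Among the transporters, the LAT1 pair fell and the other cationic transporter largely did not. Slc7a5 fell in all 5 lines. Its WAPL libraries held 233, 237 and 235 CPM untreated and 115, 121 and 119.5 treated, a narrow spread on both sides, and the log2 fold change was -0.99 ± 0.0891 (edgeR adjusted p = 6.18e-10). In PDS5AB 172, 132 and 143 CPM stood against 116, 88.2 and 84.9 (-0.63 ± 0.0892, edgeR adjusted p = 1.08e-06). Within PDS5AB replicate 1 was the highest library of both groups. The effects in TIR1, PDS5AB-NIPBL and WAPL-NIPBL were alike in size, at -0.35, -0.34 and -0.33, with edgeR adjusted p of 0.00496, 0.00655 and 0.0139. The last of these was lost without treated replicate 1 (adjusted p = 0.0717) or 3 (0.0575) of WAPL-NIPBL.

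Slc3a2, the heavy chain that LAT1 and xCT need at the membrane, fell in 4 lines. WAPL libraries held 183, 178 and 167 CPM untreated and 130.0, 121 and 114 treated (-0.53 ± 0.0686, edgeR adjusted p = 4.23e-07). Its falls were -0.38 in PDS5AB, -0.33 in PDS5AB-NIPBL and -0.28 in TIR1, with edgeR adjusted p of 4.11e-05, 0.000733 and 0.00406. This subunit and Slc7a5 had their most negative effects in the WAPL line, while those of Slc7a3, Psat1, Asns, Chac1 and Trib3 were in PDS5AB. In WAPL-NIPBL the libraries did not overlap (185, 196 and 185 against 170.5, 176 and 156 CPM), but the edgeR adjusted p was 0.125, and 0.00176 with the replicate block. The TIR1 call was lost without treated replicate 3 (adjusted p = 0.0506).

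Slc7a1, the widely expressed cationic transporter, passed the test only in PDS5AB, where 219, 202 and 209 CPM stood against 199, 156 and 155 (-0.30 ± 0.0804, edgeR adjusted p = 0.00257). In the other degron lines its effects were 0.04 ± 0.0802 for WAPL, -0.03 ± 0.0805 for PDS5AB-NIPBL and -0.01 ± 0.0801 for WAPL-NIPBL, and the libraries overlapped. In TIR1 it was 208 ± 2.87 against 182 ± 4.67 CPM (SD, n = 3 each), with no overlap and an edgeR adjusted p of 0.0843, and 0.0126 in a fit of the TIR1 groups alone. In untreated TIR1 cells Slc7a1 held 18.1 CPM per kb of exon and Slc7a3 26.3, and Slc7a3 was also the higher per kb in untreated PDS5AB, WAPL and PDS5AB-NIPBL, whereas in untreated WAPL-NIPBL Slc7a1 held 22.4 and Slc7a3 20.7.

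Slc7a11 and Chac1 were the members with the lowest levels, and Slc7a11, at 0.249 to 10.6 CPM, varied widely between replicates. Untreated TIR1 libraries held 7.05, 9.91 and 7.34 CPM and treated ones 3.37, 0.249 and 3.04. The fall (-1.90 ± 0.537, edgeR adjusted p = 0.0116) missed the threshold without treated replicate 2, where the log2 fold change was -1.33 (edgeR adjusted p = 0.07) and the remaining libraries still did not overlap. In PDS5AB it was 9.57 ± 1.04 against 9.36 ± 1.51 CPM (SD, n = 3 each), a log2 effect of -0.03 ± 0.475 (edgeR adjusted p = 0.962). In WAPL it was 0.587, 3.81 and 4.41 against 2.95, 2.41 and 3.81 CPM, in PDS5AB-NIPBL 7.32, 5.96 and 7.53 against 3.01, 4.95 and 7.45, and in WAPL-NIPBL 3.93, 3.59 and 7.09 against 2.42, 0.337 and 4.24. None of these 3 effects passed the test, and the WAPL-NIPBL one did with the block (edgeR adjusted p = 0.0464) and without the filter on low counts (4.84e-07). Apart from TIR1, treated and untreated libraries of Slc7a11 overlapped in every line.

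Among the biosynthetic enzymes, Psat1, the serine-pathway aminotransferase, fell in all 5 lines. PDS5AB libraries held 252, 346 and 355 CPM untreated and 115, 134 and 139 treated, 40.7% of the untreated level (-1.30 ± 0.102, edgeR adjusted p = 2.58e-11). Both PDS5AB groups had replicate 1 lowest. The falls were -0.66 for TIR1, -0.63 for WAPL, -0.52 for PDS5AB-NIPBL and -0.32 for WAPL-NIPBL, with edgeR adjusted p of 2.24e-05, 1.13e-05, 0.00036 and 0.0438. The WAPL-NIPBL libraries were 347, 347 and 339 CPM against 272, 292 and 266. That call was lost when any 1 of its 6 libraries was left out (adjusted p = 0.0539 to 0.152), and with the block the adjusted p was 8.12e-06.

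Phgdh, which commits 3-phosphoglycerate to serine, fell in 3 lines. Its most negative effect was in TIR1, with 54.9, 61.2 and 57.8 CPM untreated and 29.2, 34.1 and 30.5 treated (-0.89 ± 0.104, edgeR adjusted p = 4.33e-07). The PDS5AB fall was of like size (64.4, 85.6 and 81.2 against 41, 44.6 and 44.3 CPM, -0.83 ± 0.103, edgeR adjusted p = 1.17e-07). In WAPL it was -0.38 ± 0.103 (edgeR adjusted p = 0.00525, and 0.0569 without treated replicate 3). In both combined lines it was -0.21, not called without the block and called with it (edgeR adjusted p = 0.0087 in PDS5AB-NIPBL and 0.00995 in WAPL-NIPBL).

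Asns was the most abundant member, at 537 to 848 CPM, and its log2 effects did not go beyond -0.55. PDS5AB libraries held 755, 846 and 815 CPM untreated and 539, 537 and 571 treated (-0.55 ± 0.0629, edgeR adjusted p = 2.56e-08). In WAPL 848, 791 and 775 CPM stood against 686, 619.9 and 585 (-0.35 ± 0.0628, edgeR adjusted p = 5.29e-05). The falls in TIR1 (-0.19, edgeR adjusted p = 0.0332) and PDS5AB-NIPBL (-0.18, 0.0443) were small. The TIR1 call was lost without any 1 of its libraries but untreated replicate 1, and the PDS5AB-NIPBL call without any but treated replicate 3 (adjusted p up to 0.167 and 0.18). In WAPL-NIPBL the libraries overlapped, at 809 ± 23.6 and 786 ± 21.4 CPM (SD, n = 3 each), with a log2 effect of -0.04 ± 0.0627.

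Chac1, the glutathione-degrading enzyme, had the largest falls of the 9 in PDS5AB, WAPL and PDS5AB-NIPBL, at a low level of 1.65 to 10.7 CPM. PDS5AB libraries held 5.67, 7.77 and 8 CPM untreated and 1.94, 2.12 and 2.09 treated, 28.7% of the untreated level (-1.80 ± 0.241, edgeR adjusted p = 4.25e-07). WAPL libraries held 8.37, 7.05 and 7.20 against 3.14, 3.70 and 2.06 CPM (-1.35 ± 0.23, edgeR adjusted p = 3e-05). It also fell in PDS5AB-NIPBL (-1.01 ± 0.255, edgeR adjusted p = 0.00473, and 0.0548 without treated replicate 3) and in TIR1 (-0.92 ± 0.218, 0.00316). In WAPL-NIPBL 9.10, 8.14 and 8.38 CPM stood against 4.59, 8.12 and 5.49, without overlap but with 1 treated library close to the untreated ones (-0.48 ± 0.217, edgeR adjusted p = 0.189, and 0.0172 with the block). The counts behind these values were 43 to 290 fragments per library.

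Trib3, at 17.6 to 33 CPM, fell in PDS5AB alone among the 5 lines at the threshold: 25.8, 30.8 and 31.8 CPM untreated and 17.6, 21.4 and 21.5 treated (-0.54 ± 0.114, edgeR adjusted p = 0.000225). In TIR1 28, 33 and 28.5 CPM stood against 23.7, 24.9 and 24.4, with no overlap (-0.29 ± 0.112, edgeR adjusted p = 0.0651, and 0.012 in a fit of the TIR1 groups alone). The WAPL effect was -0.22 ± 0.113 (edgeR adjusted p = 0.137, and 0.0131 with the block). In PDS5AB-NIPBL and WAPL-NIPBL it was -0.18 and -0.08, not called with or without the block. Of the members with a TGATGNAA match, Chac1 and Asns fell in 4 lines and Trib3 and Slc7a11 in 1 each. Of those searched without a match, Psat1 fell in 5, Slc3a2 in 4, Phgdh in 3 and Slc7a1 in 1. A relation between match and fall was not tested.

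Differences between lines were tested directly as differences of treatment effects. Adding NIPBL loss was compared with the single-cofactor lines. From PDS5AB to PDS5AB-NIPBL, the effect was less negative by 0.78 ± 0.143 for Psat1, 0.62 ± 0.146 for Phgdh and 0.37 ± 0.0888 for Asns (edgeR adjusted p = 0.000609, 0.00632 and 0.00633), so 3 of 9 members differed, against 9.46% of all genes. With the block 7 of 9 did, against 24.4%. Untreated PDS5AB-NIPBL already held less Psat1, Phgdh and Asns than untreated PDS5AB (log2 -0.36, -0.53 and -0.16). Treated Phgdh libraries overlapped (41 to 44.6 CPM in PDS5AB, 41.4 to 49.7 in PDS5AB-NIPBL). The Phgdh difference therefore lay largely in the untreated levels. Treated libraries did not overlap for Psat1 (115 to 139 against 161 to 186) or Asns (537 to 571 against 607 to 667). From WAPL to WAPL-NIPBL, 3 of 9 differed (5.19% of all genes): Slc7a5 by 0.65 ± 0.125, Slc3a2 by 0.36 ± 0.0967 and Asns by 0.31 ± 0.0887 (edgeR adjusted p = 0.00125, 0.0238 and 0.035). With the block 5 of 9 did, against 15.5%. The Slc3a2 and Asns differences were lost in a fit of these 4 groups alone (adjusted p = 0.0604 and 0.0861), and both were lost without WAPL untreated replicate 1, WAPL treated replicate 3, WAPL-NIPBL treated replicate 1 or 2, or WAPL-NIPBL untreated replicate 3 (adjusted p up to 0.0825 and 0.12). Slc3a2 was also lost without WAPL-NIPBL untreated replicate 1, and Asns without WAPL-NIPBL untreated replicate 2 or WAPL treated replicate 2. All 6 differences were toward a smaller fall in the combined line, and Slc7a3 was also less reduced there, by 1.45 and 0.97 on the log2 scale. The combined lines also carry RAD21-Halo, and only they were given dTAG-13. NIPBL loss, that allele and the compound itself therefore cannot be told apart in these contrasts. PDS5AB and PDS5AB-NIPBL also lie in different library sets, though each effect was measured within its own.

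The PDS5AB and WAPL lines differed in how far some members fell, though Chac1 had the largest fall of the 9 in both. Psat1 fell by 0.66 more in PDS5AB, Phgdh by 0.45 more and Slc7a1 by 0.34 more (edgeR adjusted p = 0.00182, 0.0362 and 0.043), 3 of 9 against 12.5% of all genes. With the block 7 of 9 differed, against 27.3%. The Slc7a5 effect was in the other direction, larger in WAPL by 0.36 ± 0.125, with an edgeR adjusted p of 0.058, and 8.16e-05 with the block. The Phgdh difference was lost when 7 of the 12 libraries were left out in turn, and held only without PDS5AB untreated replicate 1, PDS5AB treated replicate 2, WAPL untreated replicate 1 or WAPL treated replicate 2 or 3. The Slc7a1 difference was lost with 8 of the 12, and held only without replicate 2 of the untreated or replicate 1 of the treated libraries of either line. Both were lost in a fit of these groups alone (edgeR adjusted p = 0.0659 and 0.14). The 2 lines lie in different library sets, but each effect was measured within its own.

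Set against TIR1, where auxin had no tagged target, 3 of 9 members differed in PDS5AB (26.3% of all genes) and 2 of 9 in WAPL (20.7%). Both counts are near the share of all genes. With the block 5 and 6 did, against 40.2% and 35.4% of all genes, though the replicate numbers did not pair the TIR1 libraries. Psat1, Chac1 and Asns fell further in PDS5AB, by 0.64, 0.88 and 0.37 (edgeR adjusted p = 0.00121, 0.0438 and 0.00261), and Slc7a5 fell further in WAPL, by 0.64 (edgeR adjusted p = 0.000368). The Chac1 difference held only without PDS5AB untreated replicate 1, TIR1 untreated replicate 2 or TIR1 treated replicate 3 among the libraries left out in turn (adjusted p up to 0.126). Phgdh went the other way. It was less reduced than in TIR1 by 0.51 for WAPL, 0.68 for PDS5AB-NIPBL and 0.68 for WAPL-NIPBL (edgeR adjusted p = 0.0117, 0.00287 and 0.00334), the first lost without WAPL treated replicate 1 (0.05), and was the 1 member of 9 called in each combined line (10.1% and 7.04% of all genes). That count is again near the shares. For the other 8 members the differences of the combined lines from TIR1 did not pass. They ran from -0.09 (Chac1) to 1.48 ± 0.744 (Slc7a11) for PDS5AB-NIPBL and from 0.02 (Slc7a5) to 0.84 ± 0.778 (Slc7a11) for WAPL-NIPBL. With the block 2 and 4 of the 9 passed, against 25.1% and 22.3% of all genes, adding Slc7a11 in the former (edgeR adjusted p = 0.035) and Psat1 (0.34), Slc7a1 (0.19) and Asns (0.15) in the latter (edgeR adjusted p = 0.000387, 0.0298 and 0.0471). All 4 comparisons share the TIR1 libraries, whose treated and untreated groups lie in different sets.

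The untreated lines already differed for some members. Untreated PDS5AB cells held less Slc7a5 than untreated TIR1 cells, 149 ± 20.5 against 235 ± 24.2 CPM (SD, n = 3 each; log2 -0.66, edgeR adjusted p = 5.86e-07), and less Slc3a2 (-0.27, 0.00271), but more Phgdh (0.41, 0.00213). These 3 of 9 compare with 32% of all genes, so they are near the share of genes that differ between these clones. WAPL-NIPBL cells held more Phgdh than WAPL cells, 83.8 ± 6.45 against 56.3 ± 4.55 CPM (0.57, edgeR adjusted p = 0.000215), 1 of 9 against 10.7%. From PDS5AB to PDS5AB-NIPBL 6 of 9 differed (32.7% of all genes), with Slc7a5 and Slc3a2 higher by 0.49 and 0.21 and Chac1, Phgdh, Psat1 and Asns lower by log2 values of -0.60, -0.53, -0.36 and -0.16. Between WAPL and TIR1 1 of 9 did (14%), Psat1, by -0.30. Without PDS5AB untreated replicate 2 or 3, that count of 6 became 2. The Asns difference was also lost without any PDS5AB-NIPBL untreated library, Slc3a2 without its replicate 1 and Chac1 without its replicate 3. The WAPL difference in Psat1 was lost without TIR1 or WAPL untreated replicate 2 or 3. Both of these comparisons cross the library sets. Slc7a3 spanned 73.9 to 109 CPM over these groups.

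Per kb of exon, untreated TIR1 cells ordered the members as Asns (287 CPM per kb), Psat1 (86.6), Slc7a5 (63.5), Slc3a2 (48.7), Slc7a3 (26.3), Phgdh (23.3), Slc7a1 (18.1), Trib3 (14), Chac1 (5.16) and Slc7a11 (0.582). Over the 10 group means of log2 CPM, the members whose pattern was most like that of Slc7a3 were Psat1 (Pearson r = 0.845), Asns (0.827) and Chac1 (0.820). Slc3a2 followed at 0.793, Slc7a5 and Trib3 at 0.769, Phgdh at 0.460, Slc7a1 at 0.288 and Slc7a11 at 0.147. Many genes were nearer: Psat1 ranked 654 of 12940, and the nearest were Gm7993 (0.983), Nup205 (0.981), Bex4 (0.979), U2af1 (0.978) and Ubb (0.977). These correlations describe 10 points that share lines and treatments.

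Atf4 messenger RNA itself fell in 4 lines. It was 272 ± 32.6 CPM untreated and 138 ± 17 treated in PDS5AB (log2 -0.98 ± 0.0822, edgeR adjusted p = 8.15e-11), and 307 ± 18.3 against 207 ± 14.9 in WAPL (-0.57, 2.24e-06; SD, n = 3 each). The falls in TIR1 and PDS5AB-NIPBL were -0.36 and -0.29 (edgeR adjusted p = 0.00218 and 0.0112), and in WAPL-NIPBL the effect was -0.21 (0.116, and 0.00123 with the block). The protein, which is set by translation, was not measured. Atf5, a related factor, fell in PDS5AB (-0.86) and WAPL (-0.49). Atf3, a stress-induced factor, went the other way and rose from 4.19 to 16.4 CPM in PDS5AB, from 2.37 to 6.16 in WAPL and from 1.67 to 4.24 in PDS5AB-NIPBL. Ddit3, which encodes CHOP, was called in no line, with log2 effects from -0.26 to 0.18. Cebpb, a C/EBP factor, rose in PDS5AB (0.75) and WAPL (0.64), and its relative Cebpg fell in PDS5AB (-0.33). Of the eIF2 kinases, Eif2ak4 (GCN2) and Eif2ak2 (PKR) rose by 0.26 each in TIR1, Eif2ak3 (PERK) rose by 0.24 in TIR1 and 0.27 in PDS5AB, and Eif2ak1 (HRI) was called in no line, though with the block it passed in PDS5AB (-0.15, edgeR adjusted p = 0.00529) and WAPL (-0.13, 0.015). Gcn1l1, an activator of GCN2, fell in TIR1 (-0.23), and Impact, which inhibits GCN2, rose in WAPL, PDS5AB-NIPBL and WAPL-NIPBL (0.22, 0.29 and 0.26). Eif2s1, the alpha subunit of eIF2, fell in PDS5AB (-0.53) and WAPL (-0.26). Of the phosphatase subunits that act on it, Ppp1r15a rose in TIR1 (0.31) and fell in WAPL (-0.24) and PDS5AB-NIPBL (-0.26), and Ppp1r15b rose in TIR1 (0.20) and fell in PDS5AB (-0.33) and WAPL (-0.33). Of the 15 regulators, 3 rose and 5 fell in PDS5AB and in WAPL, 5 rose and 2 fell in TIR1, 2 rose and 2 fell in PDS5AB-NIPBL, and 1 rose in WAPL-NIPBL. Over all genes, 25.8% rose and 20.2% fell in PDS5AB, 17% and 15.8% in WAPL, 10.4% and 9.59% in TIR1, 11.4% and 8.06% in PDS5AB-NIPBL, and 5.11% and 3.45% in WAPL-NIPBL, so that several of these counts are near the share of all genes. With the block 4 fell in PDS5AB-NIPBL, adding Eif2s1 (edgeR adjusted p = 0.000328) and Ppp1r15b (0.00283), and in WAPL-NIPBL 2 rose and 2 fell, adding Eif2ak4 (0.0339), Atf4 and Ppp1r15a (0.00341).

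Many calls of regulators rested on single libraries. In TIR1, Eif2ak2 was lost without any library but untreated replicate 3 (edgeR adjusted p up to 0.185), Eif2ak4 without untreated replicate 1 or 2 or treated replicate 1 or 3 (up to 0.0985), Eif2ak3 without untreated or treated replicate 3 (up to 0.156), Ppp1r15b without untreated replicate 1 or 3 or treated replicate 2 (up to 0.108) and Gcn1l1 without untreated replicate 1 (0.076). Of the TIR1 rises, that of Ppp1r15a held in each of these. In WAPL, Atf5 was lost without untreated replicate 1 or 3 or treated replicate 2 or 3 (up to 0.182), Impact without untreated replicate 1 or 3 or treated replicate 2 (up to 0.11) and Eif2s1 without treated replicate 3 (0.0512), and all 3, with Ppp1r15a (0.0749), were lost in a fit of the WAPL groups alone. Cebpg was lost without untreated replicate 2 of PDS5AB (0.0569). In PDS5AB-NIPBL, Atf4 was lost without untreated replicate 1 (0.0559) and Ppp1r15a without treated replicate 3 (0.0952), and in WAPL-NIPBL Impact was lost without untreated replicate 1 or 3 or treated replicate 1 or 2 (up to 0.145).

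Many other genes that ATF4 is known to induce fell too. Of 28 listed, 27 were tested (all but Fgf21), and 19 fell in PDS5AB, 18 in WAPL, 17 in TIR1, 9 in PDS5AB-NIPBL and 5 in WAPL-NIPBL, while 1, 3, 0, 3 and 0 rose. Over all genes 20.2%, 15.8%, 9.59%, 8.06% and 3.45% were called lower in these lines and 25.8%, 17%, 10.4%, 11.4% and 5.11% higher. With the block 14 fell in WAPL-NIPBL, where 10.1% of all genes did, and 3 rose in PDS5AB and 2 in WAPL-NIPBL. The list's medians were -0.60, -0.36, -0.39, -0.21 and -0.18. The proline-synthesis genes were among the lowest in PDS5AB: Aldh18a1 fell from 90.6 ± 5.86 to 37.4 ± 1.41 CPM (-1.28, edgeR adjusted p = 2.26e-13) and Pycr1 from 21.8 to 8.79 (-1.31, 7.94e-07). Aldh18a1 fell in all 5 lines, as did Mthfd2 of mitochondrial folate metabolism (-0.88 in PDS5AB and -0.39 in WAPL-NIPBL). Nupr1, a stress-induced chromatin protein, fell in TIR1, PDS5AB and WAPL (-0.91, -1.03 and -1.0), Aldh1l2, of mitochondrial folate metabolism, fell in WAPL (-1.11), and the glycine transporter Slc6a9 fell in TIR1 (-0.96). Other genes of the list went the other way. Ddit4, an inhibitor of mTORC1 that other stresses also induce, rose from 101 to 263 CPM in PDS5AB (1.38, edgeR adjusted p = 2.02e-07) and from 137 to 207 in WAPL (0.60, 0.00777). The secreted factor Gdf15 rose in PDS5AB-NIPBL (0.43). Cth, of cysteine synthesis, fell in TIR1 (-0.53) and rose in WAPL (0.43). Of the 21 listed genes with a promoter entry, 9 held TGATGNAA.

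Cytosolic tRNA synthetases, 7 of which are also in that list, charge the tRNAs with amino acids. Of 20, 19 fell in PDS5AB, 14 in WAPL, 13 in TIR1, 7 in PDS5AB-NIPBL and 4 in WAPL-NIPBL, and none rose, where 20.2%, 15.8%, 9.59%, 8.06% and 3.45% of all genes fell. With the block 16 fell in PDS5AB-NIPBL and 13 in WAPL-NIPBL, against 15.3% and 10.1% of all genes. Their medians were -0.68, -0.33, -0.28, -0.17 and -0.17. Aars, for alanine, went from 545 to 332 CPM in PDS5AB and from 608 to 409 in TIR1 (edgeR adjusted p = 1.43e-08 and 5.17e-06), and Yars, for tyrosine, from 176 to 96.7 in PDS5AB (5.86e-10). Sars (serine) fell by 0.84 in PDS5AB, Tars (threonine) by 0.60 in WAPL and Lars (leucine) by 0.49 in TIR1. Dars, for aspartate, named after its values were seen, was the 1 that passed in no line.

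Other amino acid transporters changed in both directions. Of 23 tested, 12 rose and 6 fell in PDS5AB, 8 and 5 in WAPL, 9 and 5 in PDS5AB-NIPBL, 6 and 3 in WAPL-NIPBL, and 4 and 3 in TIR1. Of all genes 25.8%, 17%, 11.4%, 5.11% and 10.4% were called higher in these lines, and 20.2%, 15.8%, 8.06%, 3.45% and 9.59% lower. With the block 8 rose and 5 fell in WAPL-NIPBL, against 10.8% and 10.1% of all genes. In PDS5AB-NIPBL 11 rose and 5 fell with it (16.8% and 15.3%), in WAPL 10 and 7 (22.1% and 23%) and in PDS5AB 12 and 7 (30.7% and 26%). Slc7a8 (LAT2), which carries neutral amino acids with the same Slc3a2 partner as Slc7a5, rose in all 5 lines while Slc7a5 fell. It went from 15.2 ± 2.35 to 60.3 ± 12.2 CPM in PDS5AB (1.99, edgeR adjusted p = 6.6e-12), from 4.63 to 18.7 in WAPL (2.01, 7.26e-11) and from 4.44 to 6.95 in TIR1 (0.65, 0.00758). Slc1a1, a glutamate and cysteine transporter, rose in the 4 degron lines, from 8.53 to 24.0 CPM in PDS5AB. Slc38a3 (SNAT3) rose in PDS5AB (2.03), Slc36a4 in WAPL (1.35) and WAPL-NIPBL (0.93) and Slc7a2 (CAT2) in TIR1 (0.53), while Slc38a1 (SNAT1) fell in WAPL (-0.56). Slc1a4 (ASCT1) fell in all 5 lines and Slc1a5 (ASCT2) in 4, by 0.57 in PDS5AB for the latter. Slc7a7, another partner of Slc3a2, fell from 11.7 to 5.39 CPM in TIR1 (-1.11, edgeR adjusted p = 3.85e-05) and in 3 of the degron lines. In the plot of gene lists the transporters spread to both sides of zero, whereas the synthetases lie below it.

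**Figure D3:**
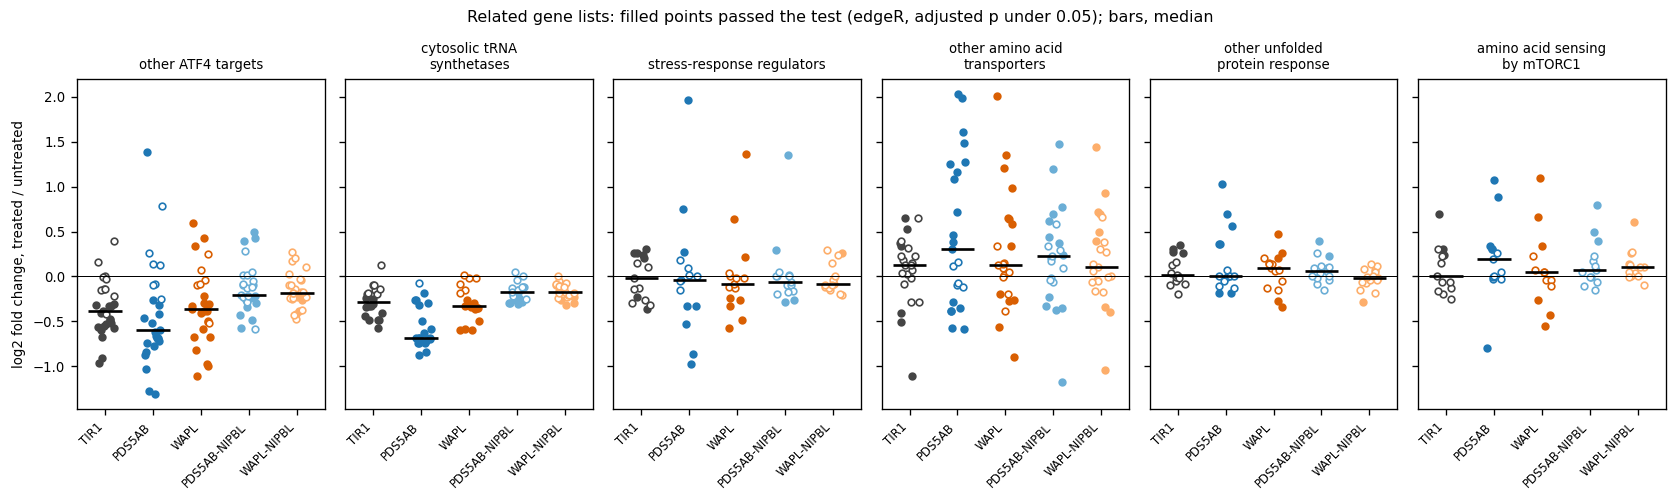
Log2 fold change (treated over untreated) of the tested genes of 6 related lists in the 5 lines. Points are genes, filled where edgeR's adjusted p was under 0.05, and bars are list medians. In PDS5AB the medians are -0.60 for other ATF4 targets and -0.68 for tRNA synthetases, against 0.30 for other transporters.

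The other stress and sensing lists had members called in both directions. Of 15 other unfolded protein response genes, 5 rose and 2 fell in PDS5AB, where 25.8% and 20.2% of all genes did. In WAPL 3 rose and 2 fell (17% and 15.8% of all genes), 4 rose in TIR1 (10.4%), 2 rose in PDS5AB-NIPBL (11.4%) and 1 fell in WAPL-NIPBL (3.45%). With the block 8 rose and 4 fell in WAPL (22.1% and 23% of all genes), 5 rose and 1 fell in PDS5AB-NIPBL (16.8% and 15.3%), and 1 rose and 2 fell in WAPL-NIPBL (10.8% and 10.1%). Ern1, which encodes the sensor IRE1, rose from 13.7 to 28 CPM in PDS5AB (1.03, edgeR adjusted p = 7.46e-09). Edem1, of misfolded protein disposal, rose in PDS5AB (0.69), TIR1 (0.30) and PDS5AB-NIPBL (0.23), and its partner in that process Sel1l rose in TIR1 (0.35). Xbp1, the factor that IRE1 activates, fell in WAPL (-0.34) and WAPL-NIPBL (-0.28). The chaperone Hsp90b1 and the sensor Atf6 fell in PDS5AB (-0.18 each), and in WAPL Creld2 fell (-0.27) and the co-chaperone Dnajc3 rose (0.26, and 0.39 in PDS5AB-NIPBL). Of the 8 NRF2 targets, which include Slc7a11, 5 rose in PDS5AB (25.8% of all genes) and 5 in TIR1 (10.4%), where Slc7a11 was the 1 that fell, while 3 rose in PDS5AB-NIPBL (11.4%), 2 in WAPL (17%) and 1 in WAPL-NIPBL (5.11%). With the block 4 rose in WAPL (22.1%), and 3 rose and 1 fell in WAPL-NIPBL (10.8% and 10.1%). Srxn1, which repairs oxidised peroxiredoxins, rose in PDS5AB, TIR1 and PDS5AB-NIPBL (0.81, 0.45 and 0.33), the haem oxygenase Hmox1 in PDS5AB and PDS5AB-NIPBL (0.73 and 0.36) and the quinone reductase Nqo1 in TIR1 and WAPL (0.63 and 0.37). Gclc, of glutathione synthesis, rose in all 5 lines, from 76.9 to 128 CPM in WAPL (0.74, edgeR adjusted p = 2.3e-09). Of 13 genes of amino acid sensing by mTORC1, 5 rose and 1 fell in PDS5AB (25.8% and 20.2% of all genes), 3 rose and 3 fell in WAPL (17% and 15.8%), 3 rose in TIR1 (10.4%), 3 in PDS5AB-NIPBL (11.4%) and 1 in WAPL-NIPBL (5.11%). With the block 5 rose in PDS5AB-NIPBL (16.8%) and 3 in WAPL-NIPBL (10.8%). Sesn3 rose in all 5 lines, from 50.4 ± 2.26 to 106 ± 8.50 CPM in PDS5AB (1.07, edgeR adjusted p = 6.61e-10), and Rraga fell in PDS5AB and WAPL (-0.80 and -0.43), while Rragc, its partner in the Rag GTPase, rose in TIR1 (0.30). Of the arginine sensors, Castor2 rose in PDS5AB and WAPL (0.89 and 0.66), and Castor1 fell in WAPL (-0.55) and rose in PDS5AB-NIPBL (0.50).

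Some of these list calls also rested on single libraries. In TIR1, Rragc was lost without untreated replicate 1 or 3 or treated replicate 1, Slc7a2 without untreated replicate 1 or 2 or treated replicate 1, and Edem1 without treated replicate 1 (edgeR adjusted p up to 0.0886, 0.109 and 0.0788). In PDS5AB, Atf6 was lost without any library but untreated replicate 1, Hsp90b1 without untreated replicate 2 or 3 or treated replicate 1, and Slc7a7 without untreated replicate 1 (up to 0.206, 0.124 and 0.0981). In WAPL, Nqo1 was lost without untreated replicate 2 or 3 or treated replicate 1, Creld2 without untreated replicate 1 and Dnajc3 without treated replicate 2 (up to 0.155, 0.0595 and 0.0749). In PDS5AB-NIPBL, Edem1 was lost without untreated replicate 1 or 3 or treated replicate 2 or 3, Gdf15 without untreated replicate 3 or treated replicate 1 or 2, Hmox1 without untreated replicate 3 or treated replicate 2, Slc1a4 without untreated replicate 1 or 2 or treated replicate 1 or 3, and Castor1 without treated replicate 1 (up to 0.14, 0.167, 0.0806, 0.201 and 0.0504). Of the ATF4 targets, Ddit4 was also called in PDS5AB-NIPBL. It was lost without untreated replicate 3 or treated replicate 1 or 2 (up to 0.309), and in a fit of these groups alone (0.083). Pycr1 was lost there without any library but untreated replicate 3 (up to 0.121). Of the synthetases, Sars was lost in PDS5AB-NIPBL without untreated replicate 1 or 2 or treated replicate 1 or 3 (up to 0.106). In WAPL-NIPBL, Tars was lost without any library but treated replicate 1 and Yars without untreated replicate 1 or treated replicate 3 (up to 0.128 and 0.108). In WAPL-NIPBL, Gclc was lost without untreated replicate 1 or 3 or treated replicate 1 or 2, Slc1a4 without untreated replicate 2 or treated replicate 1 or 3, Xbp1 without untreated replicate 3 or treated replicate 2 or 3, Slc36a4 without untreated replicate 1 or treated replicate 3, and Mthfd2 without treated replicate 1 or 3 (up to 0.13, 0.149, 0.0647, 0.115 and 0.0616).

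Within 500 kb of Slc7a3 the table has 33 other genes, of which 15 were tested. In PDS5AB 3 of them fell (Pdzd11, Zmym3 and Nono, by 0.38, 0.25 and 0.32), against 20.2% of all genes, and 1 rose, against 25.8%. In WAPL 2 fell (15.8% of all genes) and 4 rose (17%), in PDS5AB-NIPBL 1 fell (8.06%) and 2 rose (11.4%), in TIR1 2 fell (9.59%) and 1 rose (10.4%), and in WAPL-NIPBL none fell (3.45%) and 2 rose (5.11%). The counts of falls in PDS5AB and WAPL are close to those shares. With the block 5 fell and 2 rose in PDS5AB (26% and 30.7% of all genes), and 2 fell in PDS5AB-NIPBL (15.3%) and in WAPL-NIPBL (10.1%). The nearest gene, Snx12 at 11.8 kb, was called in no line, with 37.1 ± 3.53 CPM untreated and 33.9 ± 3.33 treated in PDS5AB (-0.13, edgeR adjusted p = 0.172). Tex11, 19.5 kb away on the other side, fell in WAPL (5.59 to 3.55 CPM, -0.65, edgeR adjusted p = 0.000853) and had effects of -0.10 in PDS5AB and -0.44 in WAPL-NIPBL (0.607 and 0.0628, the latter 0.00898 with the block). Il2rg, 178 kb away, rose in WAPL, PDS5AB-NIPBL and WAPL-NIPBL by 1.14, 0.89 and 0.62. Med12, a Mediator subunit 188 kb away, rose in WAPL, WAPL-NIPBL and TIR1 (0.45, 0.32 and 0.23).

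**Figure D4:**
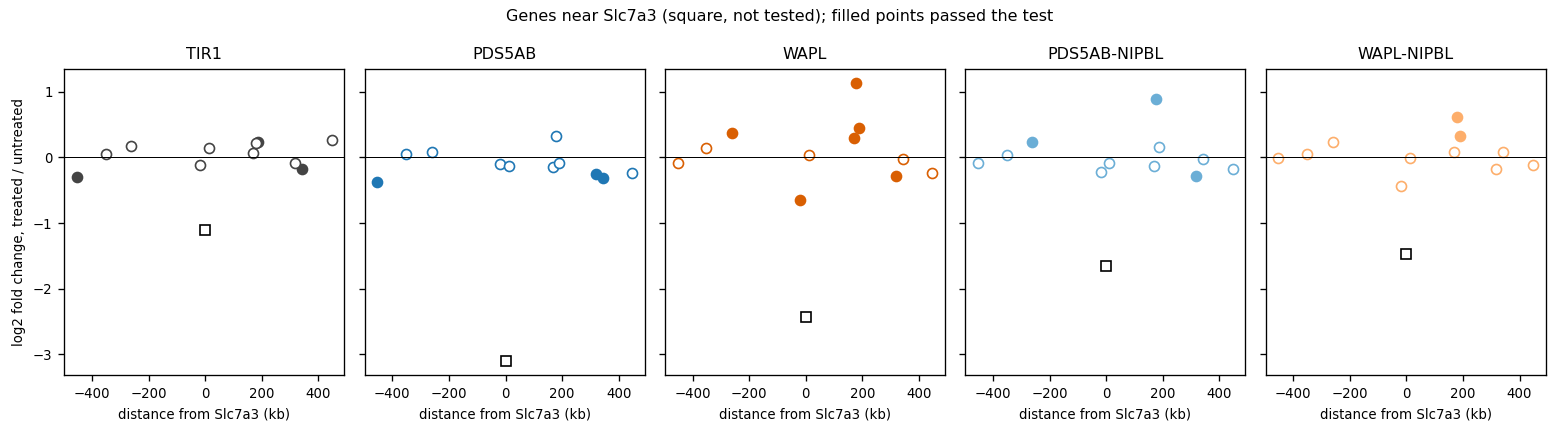
Log2 fold change (treated over untreated) against distance from Slc7a3 (kb, negative toward lower coordinates) for the tested neighbours with a mean of at least 50 counts, in each line. Filled points passed edgeR's test and the square is Slc7a3, which was not tested. Slc7a3 lies at -3.11 in PDS5AB, where no plotted neighbour passes -0.38.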

How the data were processed

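The authors deposited a table of raw fragment counts per gene. Per the file headers it was made with featureCounts 2.0.1 in paired mode, without a strand or multi-mapping option, on GENCODE vM23 and GRCm38, and per the submitters' processing notes reads were aligned with STAR 2.7.7a. The labels' protocols describe stranded polyA RNA-seq, while their library source and molecule fields say genomic DNA; the protocols were followed. The counting did not use strand. Annotated genes overlapping Slc7a5, Slc7a11 and Psat1 held at most 5 fragments each over all libraries. Of the 55421 identifiers, 55154 were matched to a symbol.

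Counts were fitted with edgeR 4.0.16 in R 4.3.3, with a mean for each of 10 groups over all 30 libraries (20 residual degrees of freedom, filterByExpr with minimum count 10, TMM factors 0.950 to 1.13). The quasi-likelihood F-test was adjusted by Benjamini-Hochberg over 19868 genes for each contrast, with a threshold of 0.05. The fit was tested on simulated data. Replicates of a group correlated at 0.987 or more, and nothing in the labels says that they came from separate cultures, so p-values measure the spread between these libraries, which may be technical. Same-numbered treated and untreated libraries deviated together in every pair of the 4 degron lines (r 0.109 to 0.333) and not in TIR1 (-0.0102 to 0.0574). The numbers come from the labels.

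The members and lists were chosen with earlier results of these data known. All members and regulators were named, and from the other lists the 2 called genes with the largest change in each direction per line (mean of at least 50 counts). Tested genes within 500 kb of Slc7a3 could be named, as could the 5 genes most like it. Dars was added to complete a count. Alternatives were DESeq2 1.42.0, RLE size factors, no filter, a 2-fold minimum, the compared groups alone, a replicate block and leaving out each library.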

Additional observations from a re-analysis of the deposited data

Results flagged for a closer look

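In these results the effect of treatment differed between lines by a test of the difference itself (edgeR, adjusted over all genes). Values are differences of log2 fold changes, where a negative value is a larger fall in the first line. PDS5AB minus TIR1 gave -0.37 for Asns, -0.64 for Psat1 and -0.88 for Chac1. WAPL minus TIR1 gave -0.64 for Slc7a5 and 0.51 for Phgdh. Phgdh also differed by 0.68 in PDS5AB-NIPBL minus TIR1 and by 0.68 in WAPL-NIPBL minus TIR1. PDS5AB-NIPBL minus PDS5AB gave 0.37 for Asns, 0.78 for Psat1 and 0.62 for Phgdh. The untreated levels of these genes also differed between those lines. WAPL-NIPBL minus WAPL gave 0.65 for Slc7a5, 0.36 for Slc3a2 and 0.31 for Asns. PDS5AB minus WAPL gave -0.34 for Slc7a1, -0.66 for Psat1 and -0.45 for Phgdh. Contrasts against TIR1 include its library set, which was not tested.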

How the results depend on the processing

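With DESeq2 or RLE size factors each treatment effect and difference named for the members kept its direction and its side of the threshold, in 77 of 77 results each. Outside the members, the Ddit4 call in PDS5AB-NIPBL was lost with DESeq2 (DESeq2 adjusted p = 0.0589). Demanding more than a 2-fold change left 2 members called lower in PDS5AB and 0 in the other 4 lines, and 0 in every difference and baseline. Of all 19868 genes, 96 were then called lower in PDS5AB, and 15, 110, 22 and 9 in TIR1, WAPL, PDS5AB-NIPBL and WAPL-NIPBL. From 3 to 255 were called in the differences and 29 to 920 in the baselines. Counts of 0 among 9 members carry little information at such shares. Most falls are smaller than 2-fold.

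With the replicate block, members called were 6 lower in WAPL-NIPBL, and in the differences 5 (PDS5AB minus TIR1, 40.2% of all genes), 6 (WAPL minus TIR1, 35.4%), 2 (PDS5AB-NIPBL minus TIR1, 25.1%), 4 (WAPL-NIPBL minus TIR1, 22.3%), 7 (PDS5AB-NIPBL minus PDS5AB), 5 (WAPL-NIPBL minus WAPL) and 7 (PDS5AB minus WAPL), and 2 in the WAPL minus TIR1 baseline (18.3%). The block took no call away, and 36 of 45 effects passed with it. It called 7065, 11255, 8960, 6377 and 4152 of all genes in TIR1, PDS5AB, WAPL, PDS5AB-NIPBL and WAPL-NIPBL, against 3962, 9134, 6517, 3874 and 1702 without it. In TIR1, whose numbers did not pair, it added Slc7a1 (edgeR adjusted p = 0.000817) and Trib3 (0.00205), which the fit of the TIR1 groups alone also called.

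Without the filter on low counts, members called were 5 (PDS5AB minus TIR1), 2 (PDS5AB-NIPBL minus TIR1), 2 (WAPL-NIPBL minus TIR1), and 2 in the WAPL minus TIR1 and WAPL-NIPBL minus WAPL baselines. Of the 40589 genes tested without the filter, 5048, 2190, 1686, 2775 and 2075 were called in these comparisons. Slc7a11 then passed in WAPL-NIPBL (edgeR adjusted p = 4.84e-07) and in its differences from TIR1 of PDS5AB, WAPL, PDS5AB-NIPBL and WAPL-NIPBL (2.4e-13, 3.91e-13, 1.37e-07 and 0.0295). Asns was lost in TIR1, PDS5AB-NIPBL and WAPL-NIPBL minus WAPL (0.136, 0.098 and 0.0714), and Asns and Slc3a2 in the PDS5AB-NIPBL minus PDS5AB baseline (0.0993 and 0.0555). Fitting the compared groups alone gave 1 (WAPL-NIPBL minus WAPL), 1 (PDS5AB minus WAPL), 2 (WAPL minus TIR1 baseline) and 3 (WAPL-NIPBL minus WAPL baseline). Of all 19868 genes, 695, 1787, 2507 and 1845 were called in these. That fit also lost Asns in PDS5AB-NIPBL (0.0599), and Asns and Slc3a2 in the PDS5AB-NIPBL minus PDS5AB baseline (0.145 and 0.0656). The cause was not tested.

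Leaving out each library gave 8 to 8 members called lower in PDS5AB, 5 to 7 in TIR1, 5 to 7 in WAPL, 4 to 4 in PDS5AB-NIPBL and 0 to 2 in WAPL-NIPBL. Differences ranged over 2 to 4 (PDS5AB minus TIR1), 2 to 4 (WAPL minus TIR1), 1 to 1 (each combined line minus TIR1), 3 to 5 (PDS5AB-NIPBL minus PDS5AB), 1 to 3 (WAPL-NIPBL minus WAPL) and 1 to 3 (PDS5AB minus WAPL). Baselines ranged over 3 to 4 (PDS5AB minus TIR1), 0 to 1 (WAPL minus TIR1), 2 to 7 (PDS5AB-NIPBL minus PDS5AB) and 1 to 1 (WAPL-NIPBL minus WAPL). Signs changed only for effects that had not passed. The log2 effect of Slc7a11 ranged from -0.13 to 0.09 in PDS5AB and from -0.42 to 0.51 in WAPL, and that of Slc7a1 from -0.02 to 0.13 in WAPL, from -0.09 to 0.01 in PDS5AB-NIPBL and from -0.03 to 0.01 in WAPL-NIPBL. Low counts limit the precision for Slc7a11 and Chac1, which went down to 11 and 43 fragments per library.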

Other observations

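Slc7a11 was nearly absent from 3 libraries of different lines and conditions, a pattern chosen after its values were seen. WAPL untreated replicate 1 held 19 fragments (0.587 CPM) where the other replicates held 108 and 112, TIR1 treated replicate 2 held 11 (0.249 CPM) where the others held 111 and 115, and WAPL-NIPBL treated replicate 2 held 11 (0.337 CPM) where the others held 56 and 146. The other 27 libraries held 2.41 to 10.6 CPM. These 3 were not shallow, at 33976968, 45539021 and 32948220 fragments. Of 19868 genes, Slc7a11 was the 1 gene at least 2-fold below its group's median in all 3. Without the low library of each comparison, 5 members other than Slc7a3 were called lower in TIR1, 6 in WAPL and 2 in WAPL-NIPBL.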
